A study of Mus musculus with 15 samples.

Results

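The 34 genes described here act in G2 and mitosis and were taken as a list by their known function, with no threshold on a measured value. The list was chosen with earlier results of these data known. All 34 were listed in each of the 3 deposited count tables, which held 15175 genes for the MC experiment and 49585 genes each for the HC experiment and for the KMC and KC libraries. The 34 comprised 4 cyclin and Cdk1 genes, 7 kinases, 7 centromere and kinetochore genes, 9 spindle motor and microtubule genes, 2 genes of the anaphase-promoting complex pathway, 3 cytokinesis genes and 2 chromosome structure genes. Each passed the filter on low counts in every comparison, so no member was left out.

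The series held 15 RNA-Seq libraries of C57BL/6 mouse pancreas, and RNA for a library was pooled from 3 mice. HPK1 (gene Map4k1) is a serine/threonine kinase of the MAP4K family, and M46 is its kinase-dead mutant. MC mice (HPK1-M46 transgenic, 2 months old, n = 3 libraries) were compared with B control mice of 2 months (n = 3), and mice labelled HC (HPK1/B, 4 months, n = 3) with WT mice of 4 months (n = 2), all after cerulein, a secretagogue that injures acinar cells and induces pancreatitis. KMC mice (with M46, 9 months, n = 2) were compared with KC mice (without M46, 15 months, n = 2), which differed from them in age as well as in genotype. Both groups also shared another Cre-activated allele, and the study describes their RNA as coming from pancreatic ductal adenocarcinoma (PDAC). B stands for Bac-cre, a tamoxifen-inducible Cre driven by the acinar elastase I promoter, so the transgenes were switched on in acinar cells whereas the RNA came from all cells of the tissue. The MC experiment and the others were prepared with different library kits and the age labels differ between them, so levels were compared only within a table.

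A cell that has copied its DNA enters mitosis when cyclin B and Cdk1 become active. Polo-like and Aurora kinases then help to build the spindle, kinetochores tie chromosomes to it, and the spindle checkpoint holds the anaphase-promoting complex until every chromosome is attached. These genes are transcribed mainly in G2 and mitosis, largely under the DREAM and MuvB complexes with Mybl2 and Foxm1, and are kept low in resting cells. Most acinar cells of the adult pancreas rarely divide, and cerulein injury is followed by a wave of division in acinar cells, in metaplastic ducts and in stromal and immune cells. In bulk RNA, a change in the number of dividing cells and a change in RNA per cell cannot be told apart.

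Levels are given as CPM, counts per 1000000 counts scaled with the trimmed mean of M values (TMM), one value for each library in the order of its replicate number. A call needed both an adjusted p no larger than 0.05 in edgeR's quasi-likelihood test (Benjamini-Hochberg, over all genes tested) and a log2 fold change of 1 or more in either direction. The labels say only that a library is a pool of mice, so p-values measure the spread between such pools, which may in part be technical. Library totals were 29766575 to 38745907 counts, and 3 counts, taken as the floor of detection, corresponded to 0.0774 to 0.101 CPM before TMM scaling. The lowest count of any member in any library was 6, for Cenpe in KC library 1.

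Markers of the tissue and of the transgene moved with the groups. The 26 acinar marker genes took 50.9, 42.5 and 55.8% of counts in the MC controls and 46.8, 37.4 and 36.96% in MC, 8.79 and 6.93% in the HC controls and 6.85, 9.09 and 5.83% in HC, and 68.5 and 59.9% in KC and 48.5 and 25.2% in KMC. Of the 26 acinar genes, 21 had over 1000 counts in every library, and the lowest count was 33, for the amylase gene Amy2a5. Ptprc, the pan-leukocyte gene CD45, stood at 13.4, 19.8 and 8.401 CPM in the MC controls against 38.3, 40.9 and 52.4 in MC, at 116 and 72.5 in the HC controls against 62.5, 35.03 and 48.9 in HC, and at 3.13 and 10.1 in KC against 33.4 and 58.5 in KMC. Map4k1 followed the same order, with 3.8005, 4.14 and 2.34 CPM against 8.31, 6.79 and 7.504 for MC, 15.4 and 11.5 against 7.32, 5.05 and 7.92 for HC, and 0.544 and 1.55 against 5.92 and 11.4 for KMC. The libraries labelled as HPK1 transgenic therefore held less Map4k1 RNA than their WT controls, and whether transgene reads would be counted under Map4k1 was not tested. Their direction below is drawn from the labels alone.

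Per kilobase of annotated exon, the levels of the 34 genes differed among themselves. In the MC libraries Mki67 led with 5.96 ± 0.658 CPM per kilobase (SD, n = 3), followed by Top2a at 4.22 ± 0.436 and Cdc20 at 4.03 ± 0.575, whose spreads overlapped. Ttk, the checkpoint kinase Mps1, was lowest at 0.372 ± 0.103 CPM per kilobase, next to Ndc80 at 0.517 ± 0.0272. In the KMC libraries Mki67 (6.06 ± 1.301, SD, n = 2) and Cdc20 (4.095 ± 0.974) were again high, and Ttk (0.313 ± 0.02603) was again lowest. The exception was the HC table, where Plk1 had the highest level of all, 8.41 ± 2.35 CPM per kilobase in the controls and 15.97 ± 1.197 in HC, against 3.897 ± 0.102 and 2.03 ± 0.525 for Mki67.

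Promoters were examined as a description of the list, and their motifs do not depend on these libraries. Windows of 300 bases, from 250 before to 50 after each gene's RefSeq start (GRCm38.p6), were available for 30 of the 34 genes, all but Ccna2, Aurkb, Kif20a and Tpx2. The cell cycle homology region (CHR, TTTGAA on either strand), the element through which MuvB complexes bind mitotic promoters, was found in 23 of the 30 windows (76.7%), against 20.2% of 27025 genes with such a window. A match starting within 100 bases of the start site was present in 73.3% of the members' windows and in 9.23% of all. CCAAT boxes, the NF-Y element, were in 76.7% against 41.1%, and both elements in 66.7% against 7.97%. The E2F motif in 4 forms (TTTGGCGC, TTTCCCGC, TTTGCCGC and TTTCGCGC) was in 1 member, Cdk1, or 3.33%, against 2.6% of all genes. Among 25 replication genes with a window the order was the other way round, with CHR in 24% and E2F in 44%. Matches of different motifs were counted separately even where they shared bases, and a match is a run of letters, not a shown binding site.

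The windows of 5 members that hold CHR are printed 5′ to 3′ on the gene's strand, to show where the element lies in a Cdk1, kinase, centromere, kinetochore and motor gene. Capitals mark TTTGAA or its reverse complement TTCAAA.
Cdk1 (chr10:69352863-69353162, minus strand): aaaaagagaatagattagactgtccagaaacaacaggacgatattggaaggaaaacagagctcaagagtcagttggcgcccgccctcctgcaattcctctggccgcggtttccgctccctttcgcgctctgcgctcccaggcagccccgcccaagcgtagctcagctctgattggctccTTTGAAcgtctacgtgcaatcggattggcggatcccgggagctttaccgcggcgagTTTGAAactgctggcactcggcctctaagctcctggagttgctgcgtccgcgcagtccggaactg
Plk1 (chr7:122159185-122159484, plus strand): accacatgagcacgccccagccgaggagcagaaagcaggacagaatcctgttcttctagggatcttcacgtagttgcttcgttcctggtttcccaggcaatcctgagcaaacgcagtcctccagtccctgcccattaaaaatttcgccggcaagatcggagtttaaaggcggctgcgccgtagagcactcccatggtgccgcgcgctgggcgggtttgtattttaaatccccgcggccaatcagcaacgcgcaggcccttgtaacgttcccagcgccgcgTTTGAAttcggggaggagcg
Cenpa (chr5:30666636-30666935, plus strand): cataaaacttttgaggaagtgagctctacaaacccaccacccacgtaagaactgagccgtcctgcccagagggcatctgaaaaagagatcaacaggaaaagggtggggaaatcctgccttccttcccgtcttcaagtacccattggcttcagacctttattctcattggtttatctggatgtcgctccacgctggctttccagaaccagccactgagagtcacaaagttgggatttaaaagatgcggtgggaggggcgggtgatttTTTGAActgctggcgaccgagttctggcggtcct
Ndc80 (chr17:71526808-71527107, minus strand): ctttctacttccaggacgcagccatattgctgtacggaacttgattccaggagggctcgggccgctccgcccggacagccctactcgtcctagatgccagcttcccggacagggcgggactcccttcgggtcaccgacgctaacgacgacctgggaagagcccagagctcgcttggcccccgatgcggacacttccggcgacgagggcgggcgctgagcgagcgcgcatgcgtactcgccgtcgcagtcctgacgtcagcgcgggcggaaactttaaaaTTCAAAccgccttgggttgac
Kif11 (chr19:37376132-37376431, plus strand): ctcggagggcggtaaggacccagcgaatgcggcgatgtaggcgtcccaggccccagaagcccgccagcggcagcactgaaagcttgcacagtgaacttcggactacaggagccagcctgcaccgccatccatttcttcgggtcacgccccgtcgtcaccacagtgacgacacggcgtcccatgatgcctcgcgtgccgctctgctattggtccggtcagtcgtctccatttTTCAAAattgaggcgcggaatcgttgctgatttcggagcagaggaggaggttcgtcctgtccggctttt
Counted from the start site, the element began at -71 and -15 in Cdk1, at 30 in Plk1, at 16 in Cenpa, at 29 in Ndc80 and at -19 in Kif11. It read in the direction of the gene in Cdk1, Plk1 and Cenpa and on the opposite strand in Ndc80 and Kif11.

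**Figure D1:**
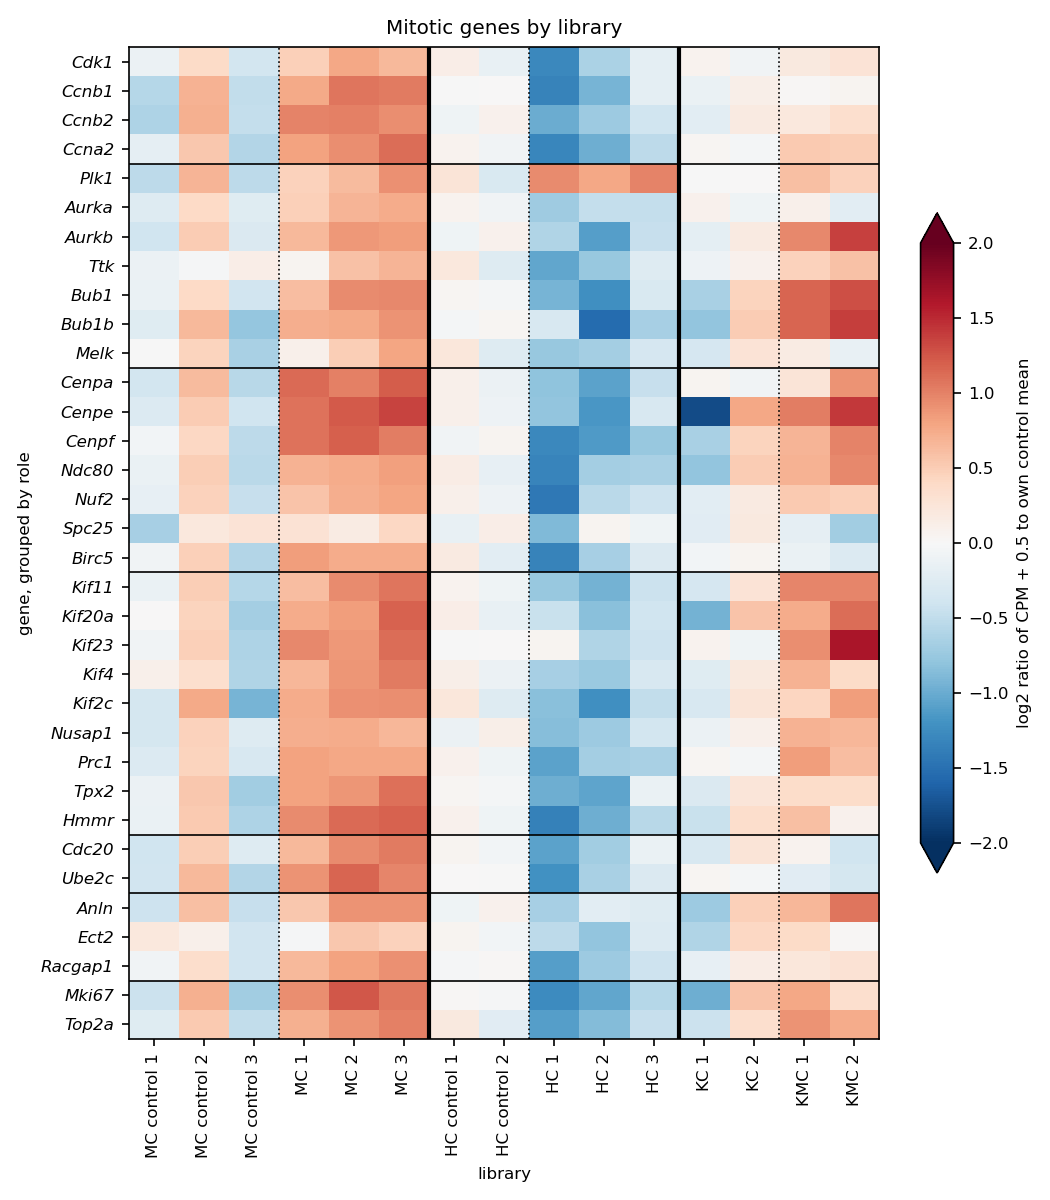
Log2 ratio of CPM plus 0.5 to the mean of the same experiment's controls, for the 34 genes (rows, divided by role) in the 15 libraries (columns, thick lines between experiments, dotted lines between controls and the compared group). Red is above and blue below the control mean: MC columns are mostly red, the columns labelled HC are mostly blue but red for Plk1, MC control 2 is red among its controls, and KC 1 is blue for Cenpe.

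The first comparison asked what acinar expression of kinase-dead M46 does to the injured pancreas. All 34 mitotic genes had a higher mean level in MC than in the controls, from a log2 fold change of 0.33 for Spc25 to 1.36 for Cenpe. The median of the 34 was 0.91, or 1.88-fold, against -0.02 over all 13902 genes tested, of which 46.9% were higher. None of the 34 was called, nor was any other gene (0%, edgeR), whereas 27 of 34 members passed an unadjusted p under 0.05, against 9.2% of all genes that did so on the higher side. DESeq2 called 7 of the 34, and 3.28% of all genes with an adjusted p. In 27 of the 34 every MC library lay above every control, a pattern shown by 10.9% of genes tested.

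The 3 controls were spread widely. MC control library 2 had the highest level of its group for 31 of 34 members, and the summed CPM of the 34 was 141, 251 and 116 in the controls against 294, 337 and 343 in MC. Without that library the median log2 fold change was 1.33, and edgeR called 28 of 34 members and 718 genes in all (5.08%). Leaving out any of the other 5 libraries left 0 members called, with medians from 0.73 to 1.02. Control library 2 also had the most leukocyte RNA of its group (summed CPM of 4 markers 103, 157 and 54.7 in the controls and 184, 201 and 277 in MC) and the lowest acinar share. Marker lists of other cells were also higher in MC, with all 7 tested T cell, 6 B cell and 5 adipocyte genes past an unadjusted p under 0.05 and median log2 fold changes of 1.94, 3.80 and 3.67. The summed CPM of the B cell genes was 3.01, 3.304 and 1.66 in the controls and 74.7, 18.04 and 6.02 in MC, that of the T cell genes 2.41, 2.56 and 1.93 and 9.06, 6.77 and 9.36, and that of the adipocyte genes 31.5, 31.2 and 37.7 and 126, 73.4 and 48.2. In these 3 lists the groups were apart in this sum, and control 2 did not stand out from the other controls. In the macrophage, neutrophil and fibroblast sums control 2 was the highest control and overlapped with MC. The macrophage sum was 676, 1349 and 539 CPM in the controls and 1109, 1124 and 1548 in MC. The neutrophil sum was 23.9, 53.3 and 7.14 against 24.9, 42.2 and 29.2, and the fibroblast sum 1180, 2378 and 974 against 1919, 2655 and 2833. The part of these differences in the mitotic values was not tested.

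Among the cyclins and Cdk1 all 4 genes passed an unadjusted p under 0.05. Cdk1, the kinase that starts mitosis, measured 6.68, 9.64 and 5.53 CPM in the controls and 10.3, 12.8 and 11.7 in MC, a log2 fold change of 0.67 ± 0.22 (SE; adjusted p = 0.258). Its partner Ccnb1 (cyclin B1) measured 1.16, 3.48 and 1.26 against 3.65, 4.699 and 4.54, a log2 fold change of 1.11 ± 0.43 (adjusted p = 0.301). Ccna2, the cyclin A of S phase and G2, measured 4.82, 8.24 and 3.504 against 10.004, 11.02 and 12.6 (1.01 ± 0.299, adjusted p = 0.2196). In all 3 genes control 2 was the highest control and still lay below every MC library.

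Of the 7 kinases 3 passed the unadjusted threshold. Plk1, the polo-like kinase that matures centrosomes, measured 1.88, 4.97 and 1.89 CPM in the controls and 4.19, 4.77 and 5.92 in MC (0.76 ± 0.399), and control 2 lay within the MC range. Aurkb, the kinase of the chromosomal passenger complex, measured 2.58, 5.24 and 2.83 against 5.85, 6.86 and 6.76 (0.86 ± 0.29), with no overlap. Bub1, a spindle checkpoint kinase, measured 1.49, 2.38 and 1.17 against 2.84, 3.69 and 3.75 (1.02 ± 0.304), also without overlap. Melk and Ttk had the smallest differences of the kinases, at 0.54 and 0.63.

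Centromere and kinetochore genes included both ends of the range. Cenpe, the kinetochore motor that carries chromosomes to the spindle equator, had the largest difference of the 34, from 2.15, 4.05 and 1.93 CPM in the controls to 6.32, 7.02 and 7.68 in MC (1.36 ± 0.296, adjusted p = 0.119). Spc25, a subunit of the same NDC80 complex as Ndc80, had the smallest, from 2.31, 4.703 and 4.897 to 4.97, 4.53 and 5.43 (0.33 ± 0.29, adjusted p = 0.583). MC control 3 lay within the MC range here, although it was the lowest control for 25 of the 34 members. Cenpa, the histone variant that marks centromeres, measured 2.18, 4.85 and 1.84 against 7.06, 6.48 and 7.504 (1.23 ± 0.36). Ndc80, which binds microtubules at the kinetochore, measured 1.59, 2.71 and 1.08 against 3.21, 3.31 and 3.55 (0.89 ± 0.33). Birc5 (survivin), the passenger complex subunit that targets Aurora B, measured 3.73, 5.69 and 2.47 against 7.44, 6.98 and 6.94 (0.83 ± 0.29). In these 3 genes no MC library overlapped with the controls.

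Spindle and exit genes followed the same order. Kif11, the kinesin that pushes spindle poles apart, measured 4.99, 7.98 and 3.55 CPM against 8.69, 11.1 and 12.05 (0.94 ± 0.29), and Prc1, which bundles the midzone microtubules, 4.395, 7.56 and 4.22 against 9.77, 9.59 and 9.602 (0.83 ± 0.24). Of the 9 spindle genes 8 passed the unadjusted threshold. Cdc20, the activator of the anaphase-promoting complex, measured 2.81, 5.596 and 3.14 against 6.32, 7.85 and 8.39 (0.96 ± 0.29). Ube2c, the ubiquitin-conjugating enzyme of that complex, measured 2.61, 5.83 and 2.201 against 7.03, 8.58 and 7.48 (1.104 ± 0.36). Neither gene had overlapping groups.

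Of the cytokinesis genes, Anln (anillin, of the cleavage furrow) measured 4.66, 9.97 and 4.49 CPM against 9.53, 12.3 and 12.3 (0.83 ± 0.32), and control 2 was above MC library 1. Mki67 (chr7:135689784-135716361, GRCm38), the gene of the proliferation antigen Ki-67, was the most abundant member by CPM, with 20.7, 46.3 and 17.2 in the controls and 54.1, 67.2 and 58.6 in MC. Its group means were 28.05 ± 15.9 (SD, n = 3) and 59.96 ± 6.62 (SD, n = 3), a log2 fold change of 1.09 ± 0.35 (adjusted p = 0.2498). Top2a, topoisomerase II alpha, measured 17.3, 29.8 and 14.5 against 33.8, 38.7 and 41.6 (0.89 ± 0.26). Neither gene had overlapping groups, and for both MC control 2 stood nearer to MC library 1 than to the other controls.

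**Figure D2:**
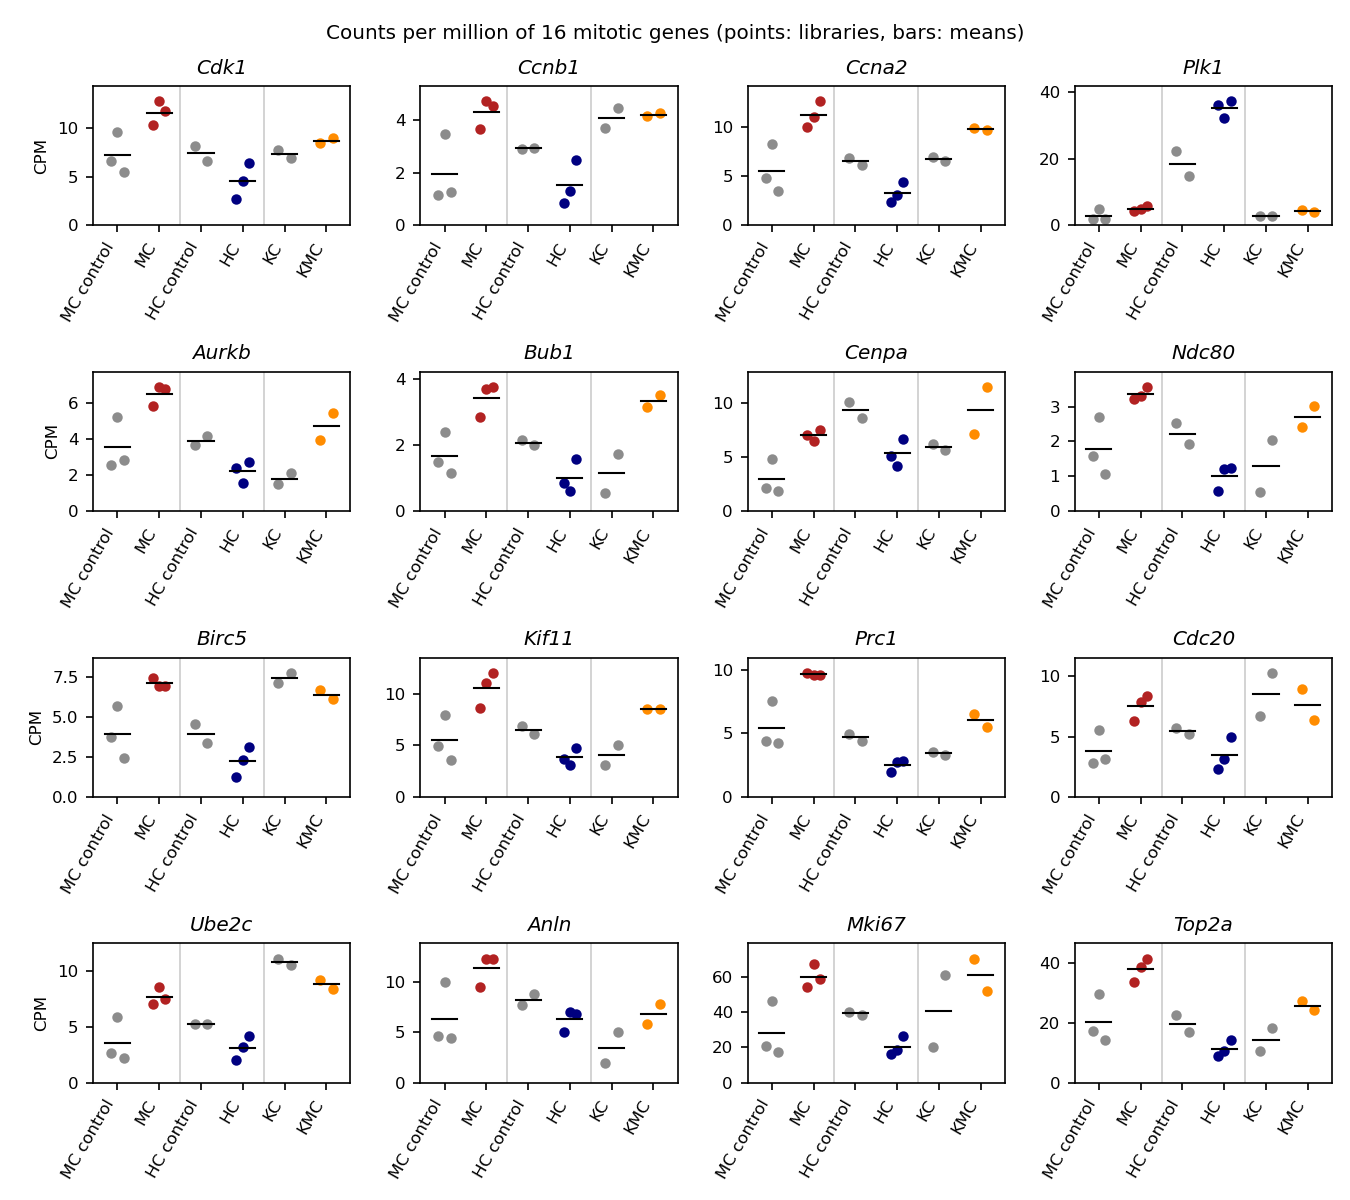
CPM of 16 mitotic genes taken as examples in each of the 15 libraries (points) with group means (bars), on linear axes from 0, with grey vertical lines between the 3 experiments. MC libraries lie above their controls, and the libraries labelled HC below theirs, in all but the panels of Plk1 (where HC is above and MC overlaps) and Anln (where MC overlaps).

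In the libraries labelled HC the same list stood on the other side. Of the 34 genes 33 had a lower mean than in the WT controls, with a median log2 fold change of -0.79, or 1.73-fold lower, against -0.00112 over all 18407 genes tested. No member was called, against 104 genes of all tested (0.565%, edgeR). On the lower side 19 members passed an unadjusted p under 0.05, against 7.47% of genes, and Plk1 passed it on the higher side. DESeq2 called 3 members, Ccna2, Cenpf and Hmmr, all lower, and 2.97% of all genes. The HC libraries lay below both controls for 31 members, against 16.1% of genes with that pattern.

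Within the group, HC library 3 was highest for 29 of 34 members and library 1 lowest for 21. The summed CPM of the 34 was 252 and 229 in the controls and 149, 149.7 and 198 in HC. Without HC library 3 the median was -1.01, without library 1 -0.64, and no member was called when any 1 library was left out. HC library 3 was the one library of this table with Y-linked RNA, with 1525 counts of Ddx3y against 0 in the other 4 and 24 counts of Xist against 18228 or more. The leukocyte sum was 581 and 349.8 CPM in the controls and 303, 198 and 267 in HC, and the sum of 10 gut and stomach genes 3463 and 1918 against 8568, 8580 and 8588. The stomach genes Gkn1 and Gkn2 were among the 8 of these 10 that were higher, and the part of any of these in the mitotic values was not tested.

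Cyclins and Cdk1 were lower in HC in all 4 cases. Cdk1 measured 8.17 and 6.65 CPM in the controls and 2.74, 4.605 and 6.43 in HC (-0.69 ± 0.35, adjusted p = 0.406). Ccnb1 measured 2.895 and 2.94 against 0.856, 1.302 and 2.47 (-0.92 ± 0.44), and Ccna2 6.85 and 6.17 against 2.33, 3.05 and 4.37 (-1.001 ± 0.295). HC library 3 was the highest of its group for all 3 genes and came close to the lower control for Cdk1.

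Plk1 was the exception among the kinases and among all 34. It measured 22.2 and 14.8 CPM in the controls and 36.1, 32.1 and 37.1 in HC, a log2 fold change of 0.93 ± 0.19 (adjusted p = 0.0962), with all 3 HC libraries above both controls. The annotation places a single-exon gene of unknown status, Gm44985, inside Plk1 on the opposite strand (chr7:122167029-122168044), sharing 156 bases of Plk1 exon. Gm44985 had 314 and 251 counts in the controls and 597, 554 and 550 in HC, against at most 16 in any KC or KMC library, and it was not listed in the MC table. The study names a stranded library protocol, but whether the counting used strand is not given in the sources used here. Reads in the 156 shared bases therefore cannot be told apart between the 2 genes. Plk1 has 2199 exon bases in all, and the part of such reads in its values was not tested. Aurkb measured 3.64 and 4.17 against 2.39, 1.56 and 2.69 (-0.82 ± 0.29) and Bub1 2.15 and 1.995 against 0.856, 0.603 and 1.58 (-1.03 ± 0.43), both without overlap and both opposite in sign to Plk1.

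Ndc80 had the lowest fold change of the list, from 2.52 and 1.92 CPM in the controls to 0.5903, 1.21 and 1.24 in HC (-1.13 ± 0.38, adjusted p = 0.236). Cenpa measured 10.1 and 8.57 against 5.14, 4.19 and 6.65 (-0.81 ± 0.24) and Birc5 4.56 and 3.35 against 1.27, 2.32 and 3.14 (-0.82 ± 0.396). Spc25 again differed least of the kinetochore genes, at -0.298 ± 0.38, and its groups overlapped. The smallest adjusted p of a lower member was that of Cenpf, a kinetochore and nuclear matrix protein, at 0.0923 with a log2 fold change of -1.13 ± 0.23.

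All 9 spindle genes were lower and 7 passed the unadjusted threshold. Kif11 measured 6.88 and 6.11 CPM against 3.66, 3.14 and 4.72 (-0.76 ± 0.24) and Prc1 4.99 and 4.37 against 1.98, 2.73 and 2.82 (-0.899 ± 0.25). Kif23, a midzone kinesin, was little different (-0.302 ± 0.22) and stood at 15.6 and 15.9 CPM in the controls and 16.4, 10.2 and 11.7 in HC, with overlap. Cdc20 measured 5.705 and 5.24 against 2.33, 3.18 and 4.97 (-0.65 ± 0.34) and Ube2c 5.27 and 5.27 against 2.01, 3.18 and 4.21 (-0.75 ± 0.33). For both, HC library 3 was closest to the controls.

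Anln measured 7.71 and 8.77 CPM in the controls and 5.02, 7.05 and 6.81 in HC (-0.39 ± 0.21). Mki67 measured 39.9 and 38.5 against 16.1, 18.8 and 26.3, with means of 39.2 ± 1.03 (SD, n = 2) and 20.4 ± 5.28 (SD, n = 3) and a log2 fold change of -0.94 ± 0.21 (adjusted p = 0.114). Top2a measured 22.7 and 16.9 against 8.94, 10.6 and 14.3 (-0.81 ± 0.24). Both controls were above every HC library for each of these 3 genes.

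**Figure D3:**
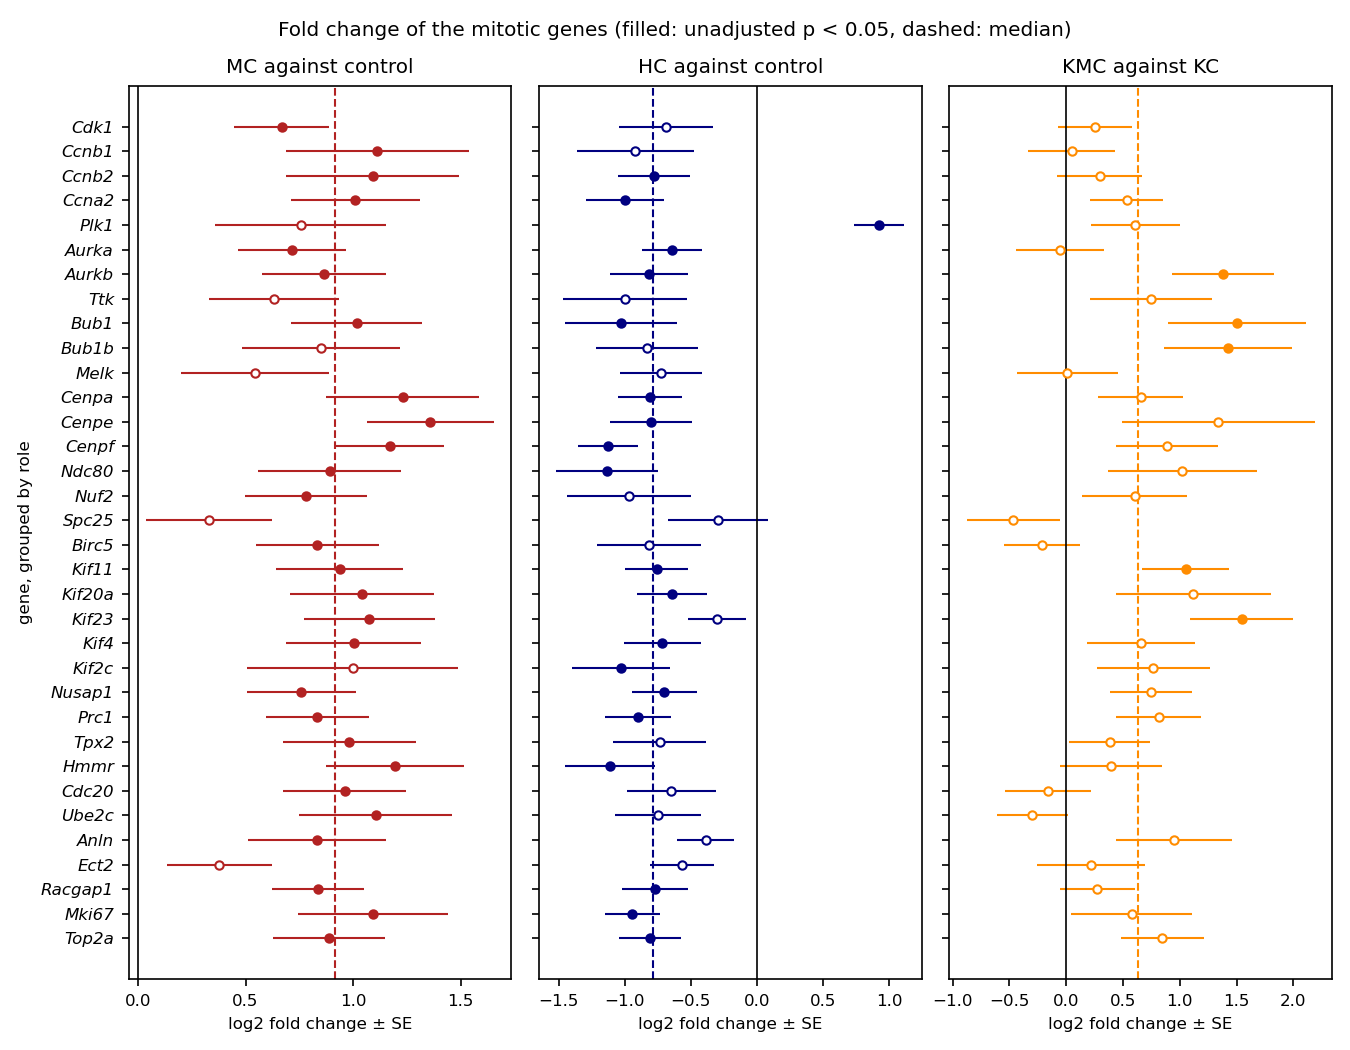
Log2 fold change with its standard error for the 34 genes in the 3 comparisons, each panel with its own axis. Filled points had an unadjusted p under 0.05, the solid line is 0 and the dashed line the median (0.91 for MC, -0.79 for the libraries labelled HC, 0.63 for KMC); Plk1 is the one point above 0 in the middle panel.

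Because each effect was measured against its own control, the difference between the MC and HC effects was tested directly in one model of the 4 groups. The difference was positive for 33 of 34 members, with a median of 1.69 (log2) against -0.03 over 14884 genes. Called members numbered 9, all in the direction of a higher MC effect, or 26.5% of the list against 2.18% of all genes. At an unadjusted p under 0.05, 32 members were higher, against 12.3% of genes. The 9 were Ccna2, the kinetochore genes Cenpa, Cenpe and Cenpf, the spindle genes Prc1 and Hmmr (a spindle assembly factor and hyaluronan receptor), Racgap1 (the centralspindlin GTPase activator of cytokinesis), Mki67 and Top2a. The sign of the HC effect rests on the labels alone. Map4k1 RNA was lower in HC than in WT, as Ptprc was, and whether transgene reads count under Map4k1 was not tested. Were the HC and WT labels exchanged, the same model would give a median difference of 0.08, with 26 of 34 members positive and 0 called. Over all genes that fit gave a median of 0.02 and called 16 of 14884 (0.107%). As labelled, differences ran from 1.602 ± 0.33 (SE) for Racgap1 to 2.304 ± 0.49 for Hmmr.

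Cenpf had the smallest adjusted p, 0.0199, with a difference of 2.29 ± 0.35. The gene lies at chr1:189640606-189688086 (GRCm38, GENCODE vM21) and measured 4.73, 6.73 and 3.28 CPM in the MC controls, 10.98, 11.9 and 10.5 in MC, 8.89 and 9.75 in the HC controls and 3.51, 3.97 and 5.29 in HC. Hmmr measured 2.78, 4.703 and 1.84 and 6.46, 7.38 and 7.701 in the MC experiment and 3.87 and 3.38 and 1.12, 1.59 and 2.31 in the HC experiment (adjusted p = 0.0381). Racgap1 measured 6.28, 8.66 and 4.99 and 10.7, 11.98 and 13.01, and 8.92 and 9.16 and 3.96, 5.24 and 6.69 (adjusted p = 0.0373). In each of these genes MC lay wholly above and HC wholly below its own controls.

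For Cenpe the MC values are given above, and the HC experiment measured 6.25 and 5.37 CPM in the controls and 3.16, 2.32 and 4.53 in HC (difference 2.16 ± 0.44, adjusted p = 0.0367). Adjusted p was 0.0351 for Prc1, 0.0439 for Ccna2, 0.04804 for Top2a, 0.0488 for Cenpa and 0.0496 for Mki67, the last 3 close to the threshold. The calls depended on the libraries: leaving out 1 library gave 0 to 30 called members, with 30 when MC control 2 was left out (10.6% of all genes were then called), 0 without MC library 2, MC control 1, HC library 2, HC library 3 or HC control 1, and 1 without MC library 3, MC control 3, HC library 1 or HC control 2. Library size alone gave 0 called members (0.658% of genes) and the size factors of DESeq2 with its own test gave 28 (6.94% of genes). With the replicate number as a block within each experiment no member and no other gene was called. Plk1 was the one member on the other side, at -0.18 ± 0.48. It was at 0.11 with library size alone, which moved the median of all genes to 0.34, and at 0.46 without MC control 2 and 0.08 without HC control 2. The experiments differed in age, kit and control genotype, and their part in the difference cannot be told apart from that of the transgenes.

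In the third comparison 29 of 34 genes had a higher mean in KMC than in KC, with a median log2 fold change of 0.63, or 1.55-fold, against 0.03 over all 15733 genes. No member was called, against 3 genes in all (0.0191%, edgeR). At an unadjusted p under 0.05, 5 members were higher (14.7%), close to the 16.1% of all genes that were, and DESeq2 called 1 (2.94%), Kif23, against 13.8% of genes. Leaving out 1 library gave medians from 0.41 to 0.89. The lowest was without KC library 1, with 26 of 34 higher and the median 0.36 above that of all genes in place of 0.60. Both KMC libraries lay above both KC libraries for 24 members, against 34.4% of genes. They lay below both for Birc5 and Ube2c, and the share of all genes with that lower pattern was not counted. The share past either p threshold was therefore no larger for the mitotic genes than for all genes. The share with KMC above KC without overlap was larger, at 70.6% against 34.4%.

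Scaling decided how many genes stood higher. With library size alone, which moved the median of all genes to 1.47, all 34 were higher, the median was 2.02 and 16 were called (47.1%, against 30% of genes). With library size computed without the acinar genes (all-gene median 0.65) all 34 were higher, with a median of 1.23 and 2 called (5.88%, against 12.5% of genes). Against the all-gene median the members stood 0.55 to 0.60 higher under each of these scalings and TMM. KMC library 2 had the lowest acinar share of the 4 libraries and KC library 1 the highest, and the leukocyte sum was 24.6 and 42.3 CPM in KC and 140.4 and 334 in KMC. Both KC libraries held Ddx3y and almost no Xist, and both KMC libraries the reverse, so sex, age and genotype cannot be told apart here.

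The 5 members past the unadjusted threshold were 3 checkpoint and Aurora kinases and 2 kinesins. Aurkb measured 1.497 and 2.09 CPM in KC and 3.95 and 5.44 in KMC (1.38 ± 0.45, adjusted p = 0.133). Bub1 measured 0.544 and 1.74 against 3.17 and 3.51 (1.504 ± 0.61), and Bub1b, the checkpoint protein BubR1, 1.02 and 3.25 against 5.38 and 6.35 (1.43 ± 0.56). In all 3 the groups were apart, and for Bub1 and Bub1b KC library 1 was far below KC library 2. Kif11 measured 3.13 and 5.07 against 8.57 and 8.53 (1.05 ± 0.39). Kif23 had the largest difference, 2.04 and 1.78 against 4.0997 and 6.98 (1.54 ± 0.45, adjusted p = 0.118), and here the 2 KC libraries were close.

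The cyclins differed little. Cdk1 measured 7.76 and 6.96 CPM in KC and 8.47 and 9.004 in KMC (0.25 ± 0.32), Ccnb1 3.68 and 4.45 against 4.15 and 4.26 (0.05 ± 0.38) and Ccna2 6.94 and 6.58 against 9.89 and 9.66 (0.53 ± 0.32). Plk1 measured 2.86 and 2.901 against 4.64 and 4.15 (0.61 ± 0.396), without the excess seen in the HC table. Cdk1 and Ccnb1 differed by less than 1 standard error.

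Both genes of the anaphase-promoting complex pathway were lower in mean. Cdc20 measured 6.74 and 10.3 CPM against 8.94 and 6.36 (-0.16 ± 0.38) and Ube2c 11.1 and 10.6 against 9.21 and 8.37 (-0.2995 ± 0.31). Birc5 measured 7.15 and 7.78 against 6.73 and 6.11 (-0.22 ± 0.33), and Spc25 had the lowest fold change, 4.56 and 6.23 against 4.69 and 3.15 (-0.47 ± 0.41). Aurka was the fifth, at -0.05. The 5 were lower under TMM, 6 genes were lower with relative log expression scaling, and none was lower with library size alone.

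Among the remaining genes, Cenpa measured 6.19 and 5.65 CPM in KC and 7.17 and 11.4 in KMC (0.66 ± 0.37), Ndc80 0.544 and 2.05 against 2.41 and 3.01 (1.02 ± 0.65) and Prc1 3.54 and 3.33 against 6.53 and 5.53 (0.81 ± 0.37). Anln measured 1.91 and 5.07 against 5.79 and 7.85 (0.95 ± 0.51). KC library 2 was above KC library 1 for 27 of 34 members, among them Cenpe with 0.408 and 4.87 CPM. Mki67 measured 20.5 and 61.1 against 70.3 and 51.8 (0.58 ± 0.53), so that KC library 2 lay between the KMC libraries. Top2a measured 10.5 and 18.2 against 27.3 and 24.4 (0.85 ± 0.36).

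**Figure D4:**
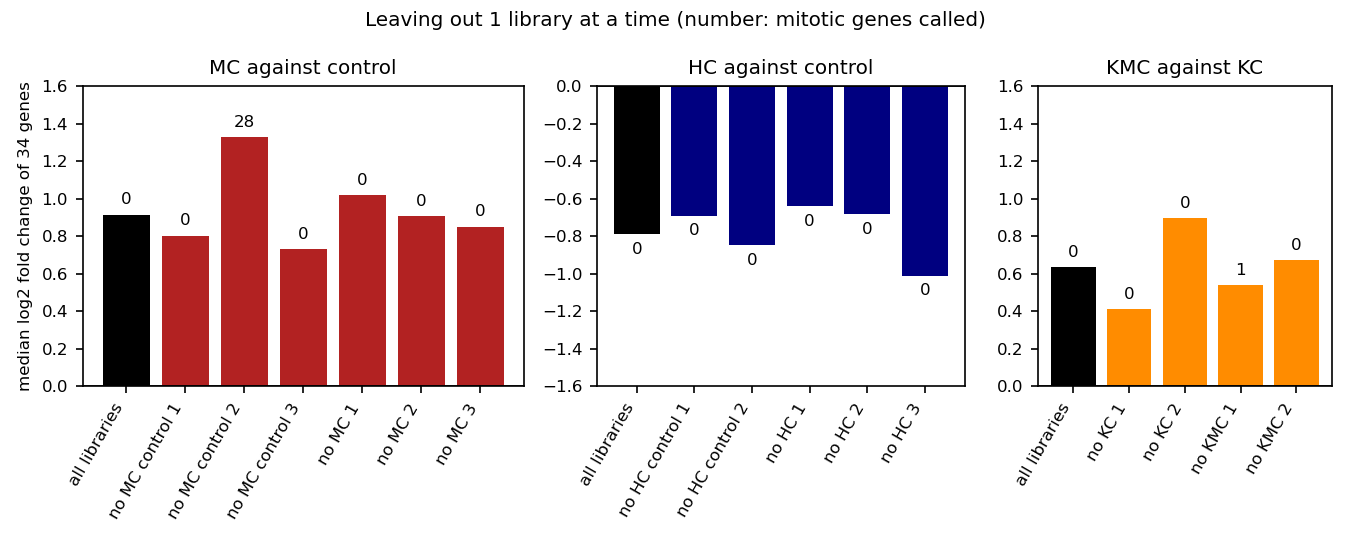
Median log2 fold change of the 34 genes with all libraries (black) and with each library left out in turn (coloured), with the number of mitotic genes called printed at each bar; axes start at 0. The median keeps its sign in all 3 comparisons, and the number called departs from 0 without MC control 2 (28) and without KMC 1 (1).

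The other 70 mitotic genes outside the list, among them kinetochore, condensin and cohesion genes, gave medians of 0.69 in MC, -0.65 in HC and 0.50 in KMC. In MC 65 of 70 were higher and 31 passed an unadjusted p under 0.05, all higher, against 9.2% of all genes. In HC 64 of 70 were lower, 29 of them past that threshold, against 7.47% of genes. In MC and in KMC the largest difference was that of Pimreg (log2 fold change 1.61, adjusted p = 0.1504, and 3.07, adjusted p = 0.105), a mitotic regulator of the metaphase to anaphase transition. For the difference between the MC and HC effects 6 of the 70 were called, against 2.18% of genes. They were Knl1, Kif18b, Kif20b, Ckap2l, Smc2 and Cdc25c.

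Regulators of these genes moved little as a list. The 15 had medians of -0.02 in MC, -0.05 in HC and -0.03 in KMC. Past an unadjusted p under 0.05 were 0 of them in MC, 4 in HC, all lower, and 1 in each direction in KMC. Of all genes 14.7, 15.9 and 25.6% passed it in either direction in MC, HC and KMC, and 7.47% on the lower side in HC. Foxm1, the forkhead factor that drives G2 and mitotic genes, measured 5.12, 9.61 and 3.55 CPM in the MC controls and 9.497, 10.3 and 11.1 in MC (0.75 ± 0.33), and 9.12 and 9.57 in the HC controls and 4.49, 3.02 and 4.28 in HC (-1.25 ± 0.23, adjusted p = 0.0706). MC control 2 overlapped with the MC libraries for Foxm1, and both HC controls were above all HC libraries. The difference between the effects was called for Foxm1, at 1.99 ± 0.44 (adjusted p = 0.0453). Mybl2 (B-Myb) was low, at 2.15, 1.61 and 0.494 against 2.43, 2.26 and 2.91 CPM in the MC experiment (0.82 ± 0.46) and 2.29 and 2.2001 against 1.03, 1.49 and 1.49 in the HC experiment (-0.75 ± 0.28). In KC and KMC, Foxm1 measured 4.9002 and 6.54 and 8.25 and 9.21.

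The 31 replication genes differed less than the mitotic genes, with medians of 0.12, -0.18 and 0.23 in MC, HC and KMC. The ratio of the members' summed CPM to that of the replication genes was 0.460, 0.767 and 0.313 in the MC controls and 0.918, 0.930 and 0.899 in MC, 0.659 and 0.555 in the HC controls and 0.393, 0.397 and 0.499 in HC, and 0.922 and 1.04 in KC and 1.29 and 1.22 in KMC. In each experiment the 2 groups were apart in this ratio, which does not depend on scaling between libraries. The replication sum includes Mcm6, which was higher in HC, and the ratio without Mcm6 was not computed. Mcm6, a subunit of the replicative helicase, went against its list in HC, at 18.8 and 20.5 CPM in the controls and 50.5, 45.4 and 51.9 in HC (1.32 ± 0.11, adjusted p = 0.0336), and was the one called gene among all the cell cycle lists in the HC comparison. Over all genes, 0 to 3 calls were left when HC library 2, HC library 3 or either control was omitted, and 379 were made without HC library 1.

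The members' sum relative to the leukocyte markers behaved differently from the sum itself. It was 1.37, 1.6003 and 2.13 in the MC controls and 1.59, 1.67 and 1.24 in MC, with overlap. It was 0.434 and 0.653 in the HC controls and 0.490, 0.755 and 0.742 in HC, also with overlap, and 5.87 and 5.52 in KC against 2.00 and 0.795 in KMC. The mitotic genes were thus higher per leukocyte RNA in both KC libraries than in both KMC libraries, the reverse of their levels by CPM. Which cells carried the mitotic RNA was not tested.

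Inhibitors and brakes had medians near 0 in MC and HC. The 17 cell cycle inhibitors and p53 targets had medians of -0.05 in MC, -0.12 in HC and -0.35 in KMC, with 9 of 16 tested lower in MC, 15 of 17 in HC and 9 of 16 in KMC. Past an unadjusted p under 0.05 were 2 in MC, both higher, Cdkn2c (0.74) and Cdkn2d (0.74), inhibitors of Cdk4 and Cdk6. In HC 2 were past it, both lower, and in KMC 2 higher and 5 lower. The share of all genes past it in either direction was 14.7% in MC, 15.9% in HC and 25.6% in KMC. Cdkn2b (p15), a Cdk4 and Cdk6 inhibitor, had the largest difference of this list in MC (1.14) and in KMC (3.56, adjusted p = 0.107). It measured 0.476 and 0.851 CPM in KC and 1.72 and 14.3 in KMC, so that KMC library 2 alone was far above the rest. Trp53inp1 was the lowest in MC (-0.595) and HC (-0.72). The 14 genes of mitotic exit and its brakes, mainly subunits of the anaphase-promoting complex and their counterparts, had medians of 0.03, -0.13 and 0.23, with 8, 5 and 9 of them higher. Of these Mastl, the Greatwall kinase that protects mitotic phosphorylation, was highest in MC at 0.91 ± 0.27 (adjusted p = 0.215).

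**Figure D5:**
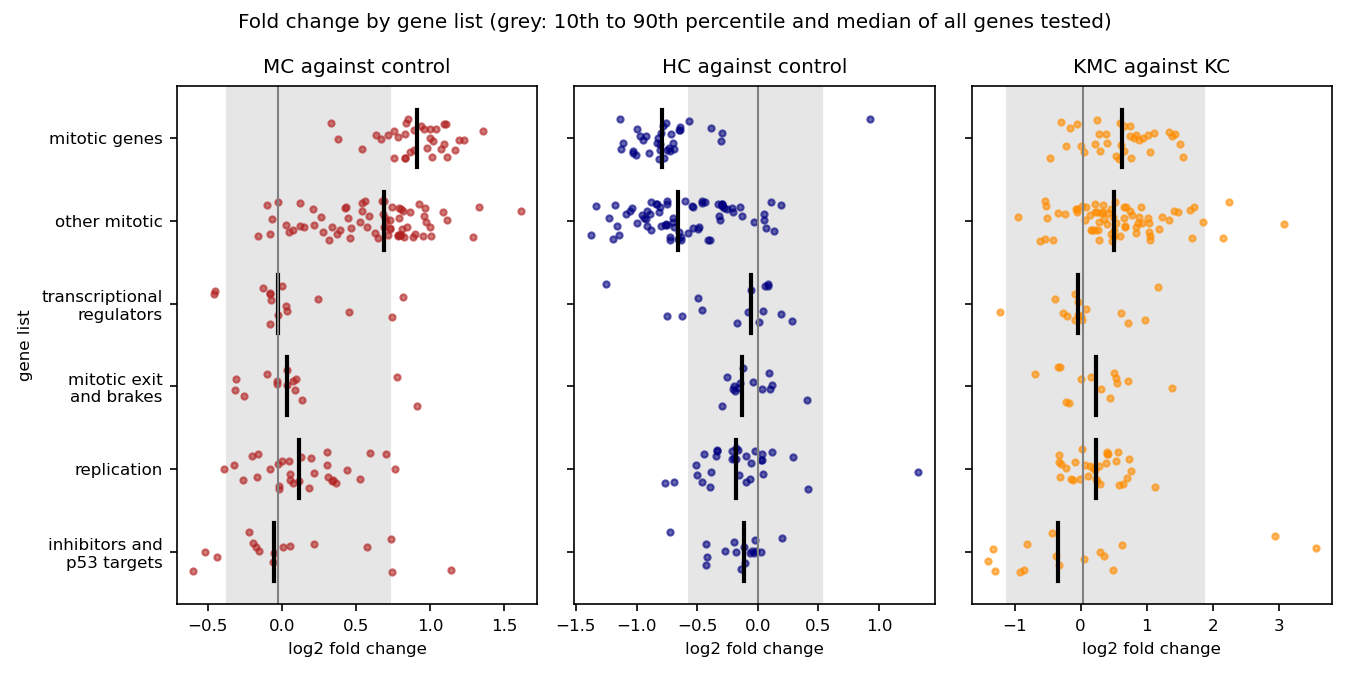
Log2 fold change of each gene (points) by gene list (rows) in the 3 comparisons, each with its own axis; black bars are list medians, the grey band spans the 10th to 90th percentile of all genes tested and the grey line their median. The medians of the mitotic genes are 0.91, -0.79 and 0.63; the band shows the spread of single genes, is widest for KMC and is no reference for a list's median.

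The genes whose level varied most like Mki67 were sought in the 6 libraries of the MC experiment after removal of the group means. With so few libraries 77 genes tied at the highest Spearman correlation of 1, of which 2 were members, so no 5 closest genes could be named. The median correlation with Mki67 was 0.886 over the other 33 members and 0.0286 over all genes tested, a description over 6 libraries that share depth and tissue make-up. The other tables had fewer than 6 libraries.

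Counting limits bear on some members. Of the near-identical copies of Ccnb1, Ccnb1-ps and Gm12856 match 51.7% and 51.9% of its transcript at 99.2% and 98.1% identity and held at most 5 counts over all libraries of a table. Exon bases are shared with a gene on the opposite strand in 8 members, by 1271 bases in Kif20a (with Cdc23), 911 in Prc1 (Rccd1), 832 in Kif4 (Pdzd11), 592 in Ube2c (Tnnc2) and 510 in Ccna2 (Exosc9), and by fewer in Nusap1, Plk1 and Cdc20. Without the strand setting of the counting, reads in those stretches cannot be told apart.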

How the data were processed

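Bulk RNA-Seq was analysed in 15 libraries of mouse pancreas. Per the labels the processing used bcl2fastq 2.17.14, STAR 2.6.1a, HTSeq 0.6.1 and DESeq2 on mm10, and the authors deposited raw counts per gene, with no normalization. The study names a stranded library protocol, but the strand setting of the counting is not given in the sources used here. A deposited table of the authors' own comparison (fold changes and p-values) was not used. The MC table lists 15175 genes and the others 49585, and no line lacked a gene.

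Samples were grouped by the labels. The test was edgeR 4.0.16 (filterByExpr, TMM, glmQLFit in its legacy form, R 4.3.3) within each table, and one model for the MC and HC effects together. Each standard error was the fitted log2 fold change over the root of its F statistic. Alternatives were DESeq2 1.42.0, other scalings, no filter, the replicate number as a block, one fit of 9 libraries and leaving out each library. The code was tested on simulated counts. All 34 members were described. The values of 16 genes, 1 to 3 for each role, of the extreme and of the called members were given for every library, and other genes by the same rule from other gene lists, with Foxm1, Mybl2, Map4k1 and Ptprc. The members and lists were chosen with earlier results of these data known. An allele shared by KMC and KC and a marker gene are not reported here. Gene positions are from GENCODE vM21 and promoters from RefSeq (GRCm38.p6). Depth was 29766575 to 38745907 counts a library.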

Additional observations from a re-analysis of the deposited data

Results flagged for a closer look

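The test of the difference between the MC and the HC effect, each against its own control, passed the threshold for the 19 genes named here, and values are log2 differences with standard errors. Among the members these were Ccna2 (2.01 ± 0.44), Cenpa (2.04 ± 0.46), Cenpe (2.16 ± 0.44), Cenpf (2.29 ± 0.35), Prc1 (1.73 ± 0.34), Hmmr (2.304 ± 0.49), Racgap1 (1.602 ± 0.33), Mki67 (2.03 ± 0.47) and Top2a (1.69 ± 0.38). Among other mitotic genes they were Knl1 (2.005 ± 0.45), a kinetochore scaffold, the kinesins Kif18b (2.26 ± 0.45) and Kif20b (1.64 ± 0.35), Ckap2l (1.77 ± 0.39), the condensin subunit Smc2 (1.21 ± 0.28) and Cdc25c (2.51 ± 0.58), the phosphatase that activates Cdk1. The transcription factor Foxm1 differed by 1.99 ± 0.44. The replication gene Mcm6 differed in the other direction, by -1.36 ± 0.29. Ptprc, the leukocyte gene, differed by 2.602 ± 0.45 and Map4k1 by 2.11 ± 0.35, so that these moved with the members, and their part in the members' differences was not tested. Another 11 genes of the other marker and housekeeping lists passed it too. Of these 9 were higher, namely 4 macrophage, 2 plasma cell, 1 T cell, 1 B cell and 1 housekeeping gene, and 2 ductal genes were lower. Of all genes tested 325 of 14884 (2.18%) passed it. Groups of 2 or 3 libraries were too small for a check of single outlying libraries.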

How the results depend on the processing

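Members called in MC against control numbered 0, with 7 by DESeq2 and 0 to 28 when 1 library was left out (28 without MC control 2), and the median log2 fold change of 0.91 ranged from 0.73 to 1.33 over those fits. In the libraries labelled HC the number was 0, with 3 by DESeq2 (2.97% of genes). It was 1 with no filter on low counts (395 of 31252 genes in all) and 2 with the replicate block (339 of 18407). In KMC against KC it was 0, with 1 by DESeq2 (13.8% of genes). It was 16 with library size alone (30% of genes) and 2 with library size without acinar genes (12.5%). It was 3 with the replicate block (2464 of 15733 genes in all) and 3 with all 9 libraries in one fit (3230 of 18681). The median of 0.63 became 2.02 with library size alone and 1.23 without acinar genes, and 0.41 to 0.89 when 1 library was left out. For the difference between the MC and HC effects it was 9, with 28 by DESeq2 and 0 with library size alone. It was 1 with library size without acinar genes (160 of 14884 genes in all) and 0 with the replicate block. It was 0 with the HC and WT labels exchanged (chosen after seeing the data, 16 of 14884 genes in all), and 0 to 30 when 1 library was left out. The cause was not tested, except that leaving out a library changes the samples. No median changed sign. Over 22 genes named in the text and the 4 tests, no called log2 fold change changed sign under an alternative, 77 values crossed to being called, 106 lost a call and 1049 stayed on their side. In KMC against KC, 9 members changed sign without a call under some alternative. Replicate numbers did not pair the MC samples, whose same-numbered correlations were 0.0665, 0.296 and -0.297, and the pairing of the others, with 2 pairs, is unknown (0.189 and 0.170 in HC, 0.0514 in KMC), and the block left 0 members called in MC. Depth left every member with at least 6 counts in every library.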

Other observations

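The members were also set against tissue markers by their ratio to Ptprc. Mki67 per Ptprc was 1.55, 2.34 and 2.04 in the MC controls and 1.41, 1.64 and 1.12 in the MC libraries, 0.344 and 0.531 in the HC controls and 0.257, 0.536 and 0.537 in HC, with 6.54 and 6.08 for KC against 2.11 and 0.884 for KMC. The 2 groups overlapped in the MC and HC experiments and were apart for KC and KMC. The islet markers were 2737 and 2865 CPM in the HC controls and 3239, 5122 and 4913 in HC. Fibroblast markers were 1180, 2378 and 974 CPM in the MC controls and 1919, 2655 and 2833 in MC, with 424 and 883 for KC against 2119 and 6198 for KMC. The part of these tissue differences in the mitotic values was not tested.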
